A study of Solanum lycopersicum with 4 samples.

Results

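The genes described here are those that were already expressed in the vegetative shoot apical meristem of wild-type tomato (Solanum lycopersicum) and stood at least 2-fold higher at floral transition. They were chosen by their measured values: a gene had to lie above 10 normalised counts in both vegetative libraries, and its smaller transitional value had to be at least 2 times its larger vegetative value. Of the 34722 genes in the table, 18046 lay above 10 in both vegetative libraries, and 171 of these (0.948%) are members. A further 2 genes that met both conditions are left out by the rule. At the same level floor, 81 genes (0.449%) were at least halved, with their larger transitional value at most the smaller vegetative value divided by 2. Because the vegetative and transitional values chose the members, their folds are a description and support no test.

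RNA sequencing was done on total RNA from meristems dissected out of acetone-fixed greenhouse seedlings of 1 genotype, wild type. Vegetative meristems sampled after 6 leaves gave 2 libraries, replicates C and D. Transitional meristems gave another 2, replicates A and B. No treatment or transgene distinguishes the groups, the seedling age of each group is not stated in the labels used here, and any difference in age cannot be told apart from stage. The libraries held between 16141074 and 23043526 reads in genes, and no label states that the replicates are separate sets of plants.

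The shoot apical meristem is the dome of dividing cells at the shoot tip that forms leaves from its flanks. At floral transition in tomato, the mobile florigen signal arriving from leaves, together with regulators acting in the meristem, changes the genes in use, the dome enlarges, and the shoot ends in an inflorescence while growth goes on from the axil below. A gene that was already read in the vegetative dome and then stands higher can be used more per cell or be read in more cells. In bulk meristem RNA, more cells of a type and more RNA per cell cannot be told apart. The table pairs no identifier with a gene name, and 0 of the identifiers matched the RefSeq table of tomato, so members are given by their identifiers, without roles, and the tissue could not be checked against named markers.

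Most members started low and ended at moderate levels. Their mean vegetative level ran from 10.9 to 3102 normalised counts with a median of 51.2, against a median of 482 over all genes above the floor. Their mean transitional level ran from 33.9 to 27045 with a median of 227, against 488 over all genes above the floor. Ranked among those genes, the median member moved from percentile 12.1 to percentile 32.0. Only 11 members lay above the median gene in the vegetative group, and 56 did so in the transitional group. The end levels of 43 members were still under 100 normalised counts, those of 102 members were from 100 to 1000, and those of 26 members were over 1000.

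**Figure D1:**
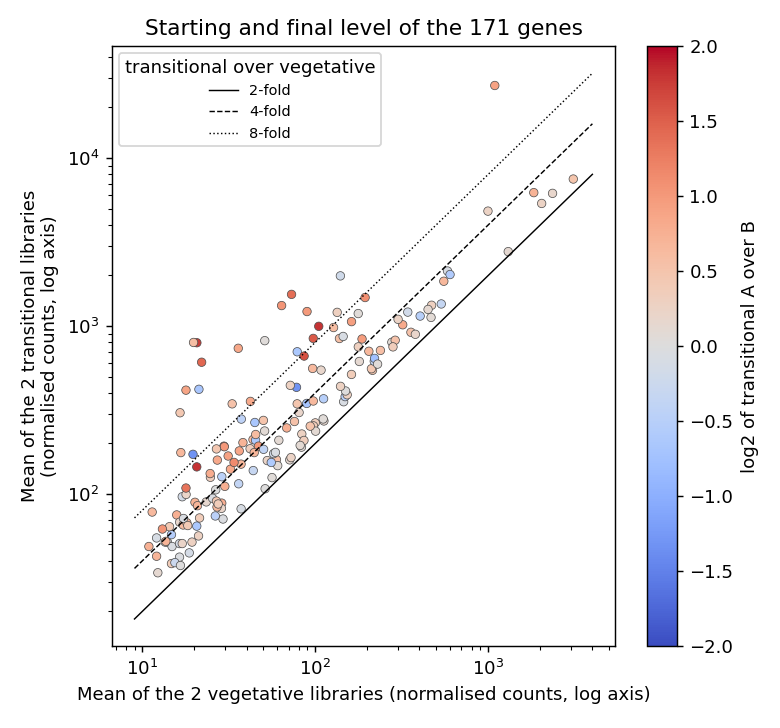
Mean vegetative level against mean transitional level of each of the 171 members, in normalised counts on log axes, coloured by the log2 ratio of transitional A to transitional B, with lines at 2-fold, 4-fold and 8-fold. Most points lie at the lower left between the 2-fold and 8-fold lines, and a single gene ends at 27045 normalised counts.

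The fold of the mean transitional over the mean vegetative level had a median of 3.68 and quartiles of 2.78 and 5.42 (lowest 2.09, highest 40.4). On the log2 scale the median change was 1.88, against -0.001 over all genes above the floor. By the stricter ratio that the rule uses, the smaller transitional over the larger vegetative value, 66 members stood at least 3-fold, 35 at least 4-fold and 12 at least 8-fold apart. No member had a ratio between 7.58 and 11.4, but the fold of means did not set these 12 apart. By that measure 21 members stood at least 8-fold higher. Solyc06g059740.2, at 14.2-fold, is among the 12, and Solyc09g014550.2, at 13.6-fold, is not. In a limma fit over all genes, 160 of the 171 members were called higher (Benjamini-Hochberg adjusted p under 0.05), where 2.70% of the 19607 genes tested were called higher, and the rule itself sets that high count. When vegetative replicate C was left out, the limma fit called 0 genes and so 0 members, with 993 genes higher at an unadjusted p under 0.05. When D was left out it also called 0, with 1285 at that p. In both fits the spread comes from the transitional pair, and the lone vegetative library is assumed to vary like it. The 11 members that limma did not call had a median vegetative level of 16.6 normalised counts, against 58.1 for those called. They were not the smallest rises alone: their median fold was 2.67, but Solyc03g098780.1, 9.51-fold higher by its means, is also among them.

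Membership became rarer as the starting level rose. Of the genes with a mean vegetative level from 10 to 30, 61 of 1223 (4.99%) were members. From 30 to 100 the share was 57 of 2320 (2.46%), and from 100 to 300 it was 33 of 3429 (0.962%). It fell to 14 of 5589 (0.250%) from 300 to 1000 and to 6 of 5485 (0.109%) above 1000. The spread of the log2 change over all genes also narrowed along these bands, with a standard deviation of 0.83 in the lowest and 0.21 in the highest, so a 2-fold difference lay further out among abundant genes. Some of the lowest members rest on few reads: the fewest reads behind a vegetative value of a member were 8, and 73 members had under 30 reads in at least 1 vegetative library.

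The folds of members by starting level are a description only. The rule admits only ratios of at least 2 in every band, so their medians cannot be compared with the share of members. The median fold was 3.89 in the lowest band, 4.04 from 30 to 100, 3.13 from 100 to 300, 3.01 from 300 to 1000 and 2.63 above 1000. The share of members with a ratio of at least 4 was 21.3%, 22.8% and 24.2% in the lower 3 bands. From 300 to 1000 none of the 14 members reached a ratio of 4, and above 1000 only 1 of 6 did. Fold and starting level share the vegetative value, so a low vegetative reading raises one and lowers the other.

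**Figure D2:**
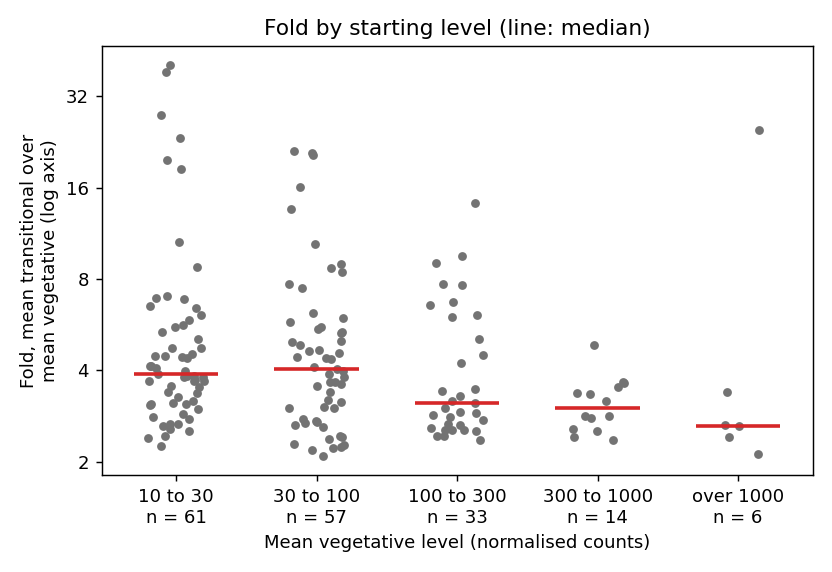
Fold of the mean transitional over the mean vegetative level (log axis) for each member, in 5 bands of mean vegetative level in normalised counts, with a line at each band's median. The medians lie between 2.63 and 4.04, and folds above 16 occur in the lower 2 bands and once above 1000.

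A single gene supplied much of the members' summed gain in normalised counts. Solyc07g006380.2 had 822 normalised counts in vegetative C and 1359 in D, compared with 35288 in transitional A and 18802 in B. Both transitional libraries lie far above both vegetative ones, but the libraries of each stage differ, D being 1.65 times C and A 1.88 times B. Its fold of means was 24.8. Summed over members, the mean level went from 28871 to 127912 normalised counts, a 4.43-fold difference, and this gene gave 26.2% of the gain. Without it the summed difference was 3.63-fold, and the 10 members with the largest gains together gave 52.5% of the total gain. As a share of all reads in genes, the members took 0.130% of vegetative C, 0.127% of D, 0.665% of transitional A and 0.481% of B.

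The other members with the highest final levels were abundant from the start, with ratios of 2.01 to 3.93. Solyc10g078370.1 had the highest vegetative level of all members, 3104 and 3100 normalised counts in C and D, and stood at 8753 and 6245 in A and B. Its ratio of 2.01 is just inside the threshold. Solyc03g122340.2 stood at 1729 and 1937 in the vegetative and at 7762 and 4686 in the transitional libraries. As in the first gene, A lies above B, here by 1.66 times. Solyc07g007750.2 went from 2294 and 2412 to 6545 and 5779 normalised counts. Solyc04g071990.2 went from 2305 and 1766 to 5832 and 4900. These 4 genes had folds of means of 2.42 to 3.40. Solyc08g074680.2, at 871 and 1121 in C and D and 5252 and 4408 in A and B, stood higher by 4.85-fold, the largest fold of the members that started from 300 to 1000 normalised counts.

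The largest ratios belonged mostly to genes that started low. Solyc09g005400.2 led with a ratio of 25.7: its vegetative values were 24.8 normalised counts in C and 14.7 in D, and its transitional values 957 in A and 638 in B. Its vegetative values rest on 18 and 15 reads, and the fold of its pooled reads was 42.2 with an exact 95% interval of 29.9 to 61.6. The interval covers counting error only. It leaves out the spread between replicates and the choice of this gene, for its large ratio, from the same reads. The size of this fold is thus loosely set by its reads.

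The next members by ratio also started under 100 normalised counts, except Solyc07g006380.2. Solyc08g006730.1 stood at 15.2 and 20.5 in the vegetative libraries and at 538 and 291 in the transitional ones. Solyc08g066880.2 stood at 34.5 and 37.2 and then at 947 and 526 normalised counts. In both genes transitional A is nearly as far above B as in the most abundant member, by 1.85 and 1.80 times. Solyc01g006660.1, at 57.9 and 44.0 in C and D, stood at 827 and 808 in A and B, and its transitional libraries differ by only 1.02 times. Solyc09g014530.2 stood at 23.5 and 20.5 and then at 891 and 326, a difference of 2.73 times between A and B. Among all 12 members at or above 8-fold, 6 had a mean vegetative level under 30 normalised counts and 11 had one under 150. Apart from Solyc07g006380.2, they ended between 304 and 1988 normalised counts.

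At the other end, the members just inside the fold threshold had ratios of 2.01, 2.01 and 2.03 (Solyc10g054910.1, Solyc10g078370.1 and Solyc05g011980.2), and the genes just outside it had 1.99, 1.99 and 1.98. Solyc10g054910.1 stood at 344 and 414 in the vegetative and 954 and 831 in the transitional libraries, and Solyc05g011980.2 at 155 and 143 and then 313 and 446. Near the threshold the set has no natural edge: 37 members had ratios under 2.2, and 63 genes above the level floor had ratios from 1.8 up to 2.

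Transitional replicate A stood above replicate B in most members. Of the 171 members, 129 (75.4%) were higher in A than in B, where 52.4% of all genes above the floor were. The median A to B ratio was 1.22 over members and 1.01 over all genes above the floor. At least 1.5-fold higher in A were 53 members (31.0%), against 3.85% of all genes above the floor. At least 1.5-fold higher in B were 11 members (6.43%), against 3.54%. These shares are not matched for level: the median transitional level was 227 normalised counts over members and 488 over all genes above the floor. Among genes that started from 300 to 1000 normalised counts, the log2 difference between A and B had a standard deviation of 0.42 over members and 0.23 over all genes, whereas from 10 to 30 it was 0.59 over members and 0.77 over all. With 1 library on each side this is a description without a test, and the rule uses the smaller of the transitional values whichever library it comes from.

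The tilt toward A was present at every starting level. It held for 44 of 61 members in the lowest band, against 52.6% of all genes in that band. From 30 to 100 normalised counts it held for 44 of 57 members, against 54.0% of all genes. From 100 to 300 it held for 26 of 33, against 54.7%. Among the 20 members that started above 300, which rest on more reads, 15 were higher in A, against 51.3% of the 11074 genes above 300. By size of rise, A was higher in 52.1% of the genes with a ratio from 1 to 1.2, 57.8% from 1.2 to 1.5 and 66.9% from 1.5 to 2, none of which are members. Among members it was higher in 73.3% of those with ratios from 2 to 3, 80.6% from 3 to 4 and 73.9% from 4 to 8. In the top 12 it was higher in 10. The share thus climbed up to about the members' threshold and had no clear order beyond it. Of the 81 genes at least halved, 40 were higher in A than in B and 41 lower, while in the vegetative stage, where those genes are high, 59 of 81 (72.8%) were higher in C than in D.

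**Figure D3:**
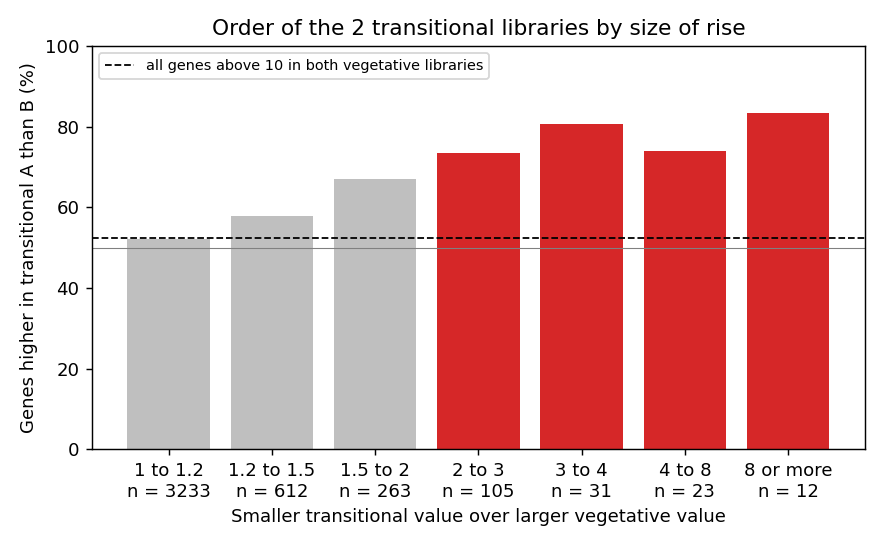
Share of genes that were higher in transitional A than in transitional B (percent), for genes above 10 normalised counts in both vegetative libraries, by the ratio of the smaller transitional to the larger vegetative value; members are red, other genes grey. The bars run from 52.1% to 83.3%, and the dashed line marks the 52.4% over all genes above the floor.

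Over all members the order of the libraries was less one-sided in the vegetative group, but not at every size of rise. C was higher than D in 41.1% of the genes with a ratio from 1.5 to 2, which are not members. Among members it was higher in 52.4% of those with ratios from 2 to 3, 67.7% from 3 to 4 and 78.3% from 4 to 8. That last share lies above the 73.9% of the same members that were higher in A than in B. In the top 12, C was higher in 6. Vegetative C stood above D in 100 of 171 (58.5%), against 49.5% of all genes above the floor, with a median log2 difference of 0.03. At least 1.5-fold higher in C were 24 members (14.0%), against 1.68% of all genes above the floor, and at least 1.5-fold higher in D were 8 (4.68%), against 2.16%. These shares are not matched for level, as all genes above the floor started from higher levels. From 10 to 30 normalised counts, the log2 difference between C and D had a standard deviation of 0.49 over members and 0.51 over all genes. From 30 to 100 it was 0.41 over both. It was wider over members from 100 to 300 (0.52 against 0.27), from 300 to 1000 (0.27 against 0.15) and above 1000 (0.36 against 0.10). No test was made.

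The members that differed most between A and B show how far single libraries set a value. Solyc03g098780.1 stood at 40.0 and 169 normalised counts in C and D and at 1549 and 442 in A and B. It varies 4.23 times within the vegetative and 3.50 times within the transitional group, and was not called by limma. Solyc10g081560.1 stood at 20.7 and 20.5 and then at 225 and 64.7, so its vegetative libraries match closely while A is 3.48 times B. Solyc08g014000.2 stood at 27.6 and 13.7 and then at 1226 and 363 normalised counts, with a fold of means of 38.5 but a ratio of 13.2. In the opposite order, Solyc04g048900.2 stood at 13.8 and 25.4 in C and D and at 98.3 and 246 in A and B. Solyc01g095630.2 stood at 91.1 and 64.6 and then at 247 and 615. Both are about 2.5 times higher in B than in A, and the next member in that order, Solyc09g075420.2, went from 221 and 219 to 474 and 808.

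Members lay on all 12 numbered chromosomes, taking the chromosome from the number each identifier carries. As a share of the genes above the floor on a chromosome, members ran from 0.598% on chromosome 5 (7 of 1170) to 1.35% on chromosome 4 (20 of 1481) and on chromosome 7 (18 of 1336). Chromosome 2 had the largest number, 21 of 1964 (1.07%), and none of the 96 genes carrying the number 0 was a member. Along the identifier order of a chromosome cut into 5 equal parts, the share ran from 0.808% in the middle part to 1.17% in the last.

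The folds were less evenly spread than the members. Chromosome 8 carried 9 members, 5.26% of the set, but 5 of the 12 with ratios of at least 8, an observation made after the values were seen. These 5 were Solyc08g006730.1, Solyc08g014000.2, Solyc08g066880.2, Solyc08g077010.1 and Solyc08g083050.1. All of them started between 13.7 and 37.2 normalised counts and stood between 258 and 1226 in the transitional libraries. They are not neighbours: the closest of them have 223 other identifiers of the table between them. The median fold of means was 18.4 on chromosome 8 and 3.65 over the members elsewhere, and the other 4 members of chromosome 8 had folds of 2.55 to 4.85.

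**Figure D4:**
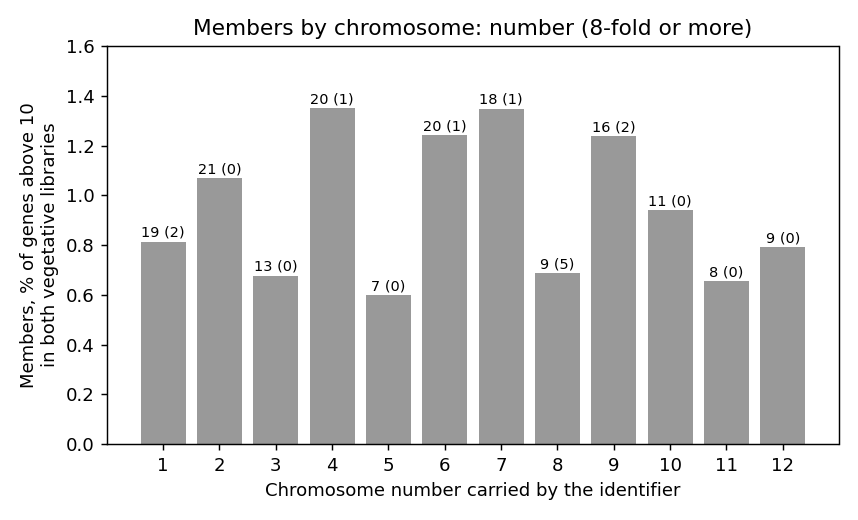
Members as a percentage of the genes above 10 normalised counts in both vegetative libraries, for chromosomes 1 to 12; above each bar stand the number of members and, in brackets, the number with a ratio of at least 8. Shares lie between 0.598% and 1.35%, and chromosome 8 has 9 members, 5 of them at 8-fold or more.

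A few members sat side by side. In the sorted identifiers, 10 of 171 members (5.85%) had another member as the next identifier, in 5 pairs, whereas 176 of the 17875 other genes above the floor (0.985%) lay next to a member. There was no run of more than 2. Another 7 pairs had 1 identifier between them, so that 23 members (13.5%) lay in a pair of either kind, and none was added by allowing 2 identifiers between. Of the other genes above the floor, 3.09% lay that close to a member. The table gives no strand, distance or sequence, so whether neighbours are copies of each other, or share reads through similarity or overlap, cannot be read from it, and their counts are uncertain to that extent.

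The 5 adjacent pairs differed in how alike their genes were. Solyc12g096770.1 stood at 34.5 and 38.1 normalised counts in C and D and at 233 and 127 in A and B. Its neighbour Solyc12g096780.1 stood at 185 and 139 and then at 1399 and 724. Their folds of means were 4.96 and 6.56, and both were higher in A than in B, by 1.83 and 1.93 times. On chromosome 9 the genes of the pair shared the order of the libraries, but their folds of means lay further apart, at 7.62 and 3.68. Solyc09g084470.2 stood at 207 and 181 and then at 2013 and 942, and Solyc09g084480.2 at 93.8 and 101 and then at 436 and 279. A was the higher library in both, by 2.14 and 1.56 times. It was the higher in 8 of the 10 adjacent members, against 75.4% of all members, so a shared order does not set neighbours apart.

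The other 3 pairs had folds of means of 3.13 and 5.98, 4.34 and 3.53, and 5.55 and 2.98, in the order given here. Solyc12g005420.1 and Solyc12g005430.1 started at nearly the same level, 141 and 139 against 145 and 145 normalised counts in C and D. They then separated, to 477 and 397 in A and B for the first and 842 and 890 for the second. Solyc04g010320.1 stood at 30.4 and 34.2 and then at 179 and 101, and Solyc04g010330.2 at 292 and 392 and then at 1137 and 1282, so A was higher in the first and B in the second. Solyc07g061750.2 stood at 22.1 and 13.7 and then at 106 and 92.1, and Solyc07g061760.1 at 19.3 and 14.7 and then at 54.7 and 46.5. That last pair is the lowest of the 5, with 5.55-fold and 2.98-fold differences of means.

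**Figure D5:**
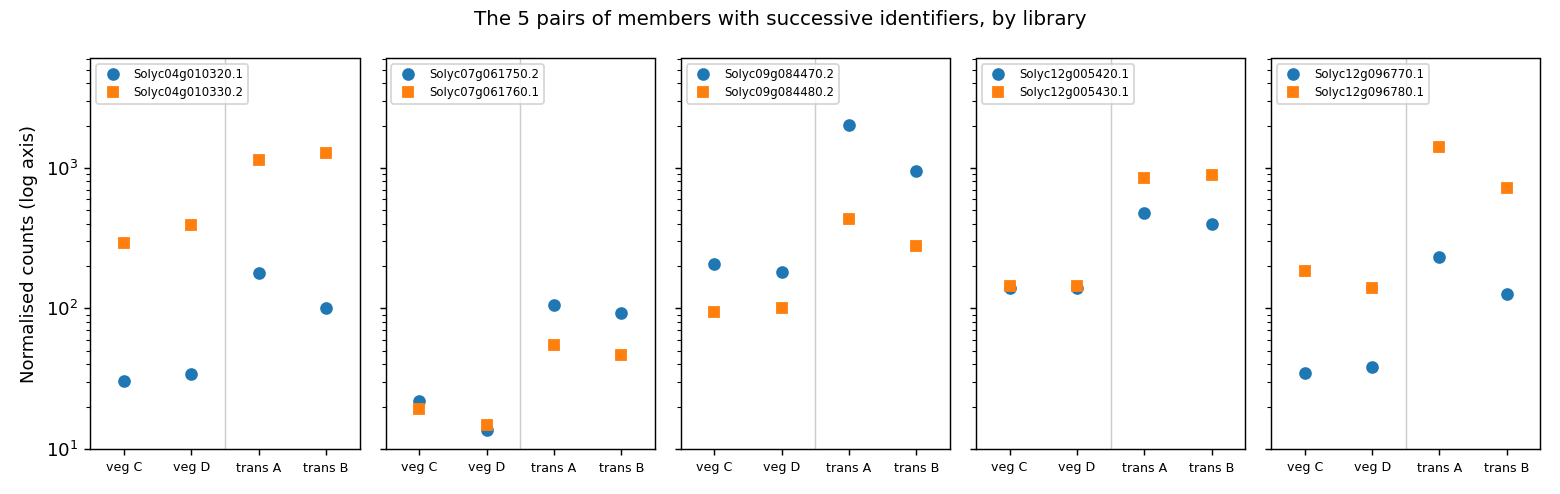
Normalised counts (log axis) of both genes of each of the 5 pairs of members with successive identifiers, in each of the 4 libraries; blue circles show the first identifier and orange squares the second. Both genes of every pair lie higher in the transitional libraries, and the pair Solyc12g005420.1 and Solyc12g005430.1 starts together and then separates.

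Among the pairs with 1 identifier between them, the chromosome 9 pair held some of the largest folds. Solyc09g014530.2, described above with a fold of means of 27.7, was followed at 1 remove by Solyc09g014550.2, which stood at 108 and 71.4 in C and D and at 1623 and 815 in A and B, a 13.6-fold difference. The identifier between them, Solyc09g014540.1, was at 0 normalised counts in 3 libraries and had 1 read in transitional A. On chromosome 10, Solyc10g075050.1, Solyc10g075070.1 and Solyc10g075090.1 formed a chain of 3 at this spacing, with folds of 5.79, 3.36 and 3.09. The genes between members differed among themselves. Solyc07g054770.1, under the level floor at 5.52 and 6.85 normalised counts in C and D, stood at 31.4 and 35.4 in A and B, higher like the members beside it. Solyc11g071470.1 stood at 2719 and 2803 and then at 4191 and 4383, higher but short of 2-fold. Solyc06g073740.2 stood at 2436 and 2664 in the vegetative and at 2237 and 2221 in the transitional libraries, with no rise between its member neighbours. The other 3 genes between members besides Solyc09g014540.1 were at 0 in all libraries or, in Solyc10g075080.1, at most at 5.87.

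Genes next to a member but not members themselves differed little at the median, and neighbours that met the rule are left out by definition. The 176 such genes above the floor had a median log2 change of 0.02, against -0.003 over all 17875 non-members above the floor, the 176 included. Both transitional values lay above both vegetative values in 52 of the 176 (29.5%), against 23.0% of all those non-members. Limma called 7 of the 176 higher (3.98%), against 1.52% of all those non-members, a difference that rests on a handful of genes. Neither difference in share was tested.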

How the data were processed

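Each value deposited by the authors is a normalised signal: the reads of a gene in a library, scaled by that library's size factor. For this processing the submitters' notes list DESeq2 (1.6.3), HTSeq (0.6.1p1) and TopHat2 (2.0.10), and give no roles. Genome build, annotation, strand setting and treatment of similar copies: not given in the sources used here. All values (100% per library, relative tolerance 1e-06) were whole multiples of 1 step, so whole reads were recovered.

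Vegetative replicates C and D (titles) are the table columns lettered A and B. The members, the bands, the neighbour definition and the rule for single genes (largest ratios, highest final levels, largest A to B differences, threshold genes, adjacent members) were chosen with earlier results of these data known. Folds use the deposited values without a pseudocount.

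Limma 3.58.1 (trend, R 4.3.3) was fitted to log2(value + 1) of the 19607 genes averaging 5 or more, with group as the only term, 2 libraries per group and 2 residual degrees of freedom. The fixed design named edgeR for counts; because the values are normalised, edgeR 4.0.16 and DESeq2 1.42.0 on the recovered reads are alternatives. Limma was tested on simulated data with the same spread set for every gene, so that test does not cover genes whose replicates vary more. Replicates may be technical, and p-values measure the spread between these libraries alone. Counting intervals used SciPy 1.17.1.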

Additional observations from a re-analysis of the deposited data

How the results depend on the processing

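TMM scaling gave the same 171 members and library size scaling 173, all 171 among them. A floor of 5 gave 214 members and a floor of 20 gave 129. A floor of 50 gave 82, with a median log2 change of 1.59. A 1.5-fold threshold gave 434 members (median 1.22) and a 3-fold threshold 66 (median 2.59). Leaving out 1 library loosens the rule by construction and gave 239 to 348 members, with medians of 1.51 to 1.71 on the log2 scale; all 171 stayed in. The share of members higher in transitional A than B was 75.4% to 78.8% under the 4 alternatives run. The share with a neighbouring member was 4.88% at a floor of 50, 8.06% at 1.5-fold and 3.03% at 3-fold, 13.5% with up to 2 identifiers between, and 11.1% when only genes above the floor were lined up, where 1.78% of the other genes had a member beside them.

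Limma without a filter called 6 genes higher, 5 of them members; the cause was not tested. Leaving out 1 library in turn, limma called 0 to 776 genes and 0 to 144 members higher: 0 without vegetative replicate C or D (993 and 1285 genes higher at an unadjusted p under 0.05), 124 members without transitional A and 144 without B. EdgeR called 160 members and DESeq2 150. No other alternative moved a count by over 1.5 times. Levels near the floor rest on few reads, which limits their folds.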
